A study of Homo sapiens with 6 samples.

Results

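Ribosome biogenesis and polymerase I genes were followed in MV4;11 cells after cortistatin A. The set holds 35 genes listed by symbol: subunits of RNA polymerase I, proteins that build and modify ribosomal RNA, assembly factors of both ribosomal subunits, nucleolar regulators and 4 metabolic enzymes of the growth programme. A gene was measured where at least 1 probe set was annotated to it alone, and the probe set with the highest mean over all arrays stood for it. This gave 30 of the 35 genes, among 19775 genes in all. NOP56, DKC1, BOP1 and PPAN had only probe sets annotated to several genes and GNL3 had no single-gene probe set in the annotation used, so these 5 were not analysed here.

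MV4;11 (cell line label MV-4-11) is an established human line of acute myeloid leukaemia that carries the MLL-AF4 fusion, and both groups are this one line. The DMSO group is 3 wells kept for 3 h with the solvent. The CA group is 3 wells kept for 3 h with 25 nM CA. By the title of the series CA is cortistatin A, a steroidal alkaloid that inhibits the Mediator kinases CDK8 and CDK19. RNA was hybridised to Affymetrix U133 Plus 2.0 arrays, 1 array per well, and the values are log2 RMA levels. The labels name 2 ways of isolating the RNA, a column kit and TRIzol, but not which was used for which array, so its part could not be tested. Nothing in the labels says that the wells were separate cultures. The p-values therefore reflect the spread among these 6 arrays alone, and this spread may be technical.

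A cell makes ribosomes in the nucleolus. RNA polymerase I copies the ribosomal DNA into a long precursor, small nucleolar ribonucleoproteins (snoRNPs) guide its methylation and pseudouridylation, and large sets of assembly factors fold, cut and export the small and large subunits. In leukaemia cells many of these genes are known targets of MYC, which also drives polyamine and nucleotide synthesis.

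Of the 30 measured genes 28 had a positive change after cortistatin A and 2 a negative one, with a median of 0.08 on the log2 scale, or 1.06-fold. Over all genes 52.4% were positive and the median was 0.0065. NIP7, listed with the factors of the large subunit, was the only one of the 30 that rose by limma at an adjusted p under 0.05 over all genes, a rule that called 0.582% of all genes (0.445% higher and 0.137% lower). An unadjusted limma p under 0.05 was reached by 10 of 30 genes, all of them higher, where this rule took 6.81% of all genes higher and 5.83% lower. The DMSO and cortistatin A arrays did not overlap for 12 of the 30 genes, all higher, against 10.2% of all genes higher and 9.22% lower. All 30 genes lay above the median of all probe sets. Among all 12637 genes above it 51.5% were positive, 7.91% were higher and 7.04% lower at an unadjusted limma p under 0.05 and 12.8% were higher without overlap. The sizes were small, and 12.1% of simulated 1.2-fold changes were recovered by the same test at this number of arrays, so that a missing call does not show that a gene was level.

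The series as a whole gave 115 genes past the threshold, 88 higher and 27 lower. Pairs of arrays correlated across genes at 0.9975 to 0.9979 within the groups and 0.9969 to 0.9974 between them. All 7 measured myeloid genes lay above the median of all probe sets (3.74): LYZ (12.41), FLT3 (9.56), MEIS1 (8.70), PTPRC (7.43), CSF1R (5.62), MPO (5.23) and SPI1 (4.36). The arrays did not overlap for FLT3 (-0.20, limma adjusted p = 0.196) and MEIS1 (0.18, limma adjusted p = 0.217). Nor did they for PECAM1 (0.10, limma adjusted p = 0.458), a gene listed for another cell type. Of 10 genes listed for other cell types EPCAM (1.58), CDH5 (2.04), COL1A2 (2.58), CDH1 (2.71) and MS4A1 (2.82) lay below that median. PECAM1 (8.19), COL1A1 (6.11), HBB (4.70), CD3E (4.39) and CD3D (3.88) lay above it. All of these but CD3D lay above SPI1, COL1A1 also above CSF1R and MPO, and PECAM1 above PTPRC as well. The levels of these markers therefore do not by themselves separate the cell types. None of the 17 marker genes measured was called. In bulk RNA more cells of a kind and more RNA per cell cannot be told apart. A 3' minus 5' index was averaged over 12 pairs of control probe sets, for human mRNAs and for polyadenylated spikes. The spikes are not RNA of the cells, so the index does not measure the cells' RNA alone. It grows as labelled copies become shorter. The index averaged 1.82 ± 0.04 on the DMSO arrays and 1.89 ± 0.01 on the cortistatin A arrays (SD, n = 3 each). Its values did not overlap, at an exact permutation p of 0.1 (two-sided), and 3 arrays against 3 can give no smaller p. For ACTB alone it was 1.77, 1.69 and 1.79 in DMSO and 1.88, 1.89 and 2.08 in cortistatin A, again without overlap and highest on CA replicate 3. The index of the 12 pairs was 1.898, 1.887 and 1.872 on CA replicates 1, 2 and 3, so that CA replicate 3 was the lowest treated array there. Because the index did not overlap between the groups, a fit holding both separates index from treatment only by the small spread within groups. It also spends 1 more term on the same arrays, so calls lost in it decide nothing about either. With the index of the 12 pairs as a covariate limma called 0 of the 30 genes and 0 genes in all. There 27 of the 30 changes were positive with a median of 0.12, 7 were higher at an unadjusted limma p under 0.05, and 1378 genes in all passed that p.

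The stretch before the start site was read for the measured genes, since 28 of the 30 changes had the same sign. RefSeq starts (GRCh38.p14) were listed for 26 of the 30 genes, and the 250 bases before the first listed start were searched on both strands. CCGGAAG, the core bound by ETS factors, stood in 10 of the 26 (38.5%), against 15.8% of 10176 genes above the median of all probe sets and 12% of all 15384 tested genes with an entry. It also stood in 34.6% of 107 other ribosome assembly genes and 28.6% of 63 cytosolic ribosomal protein genes, so it is not particular to these 26. The 10 genes with it had a median change of 0.14 (0.0058 to 0.44) and the 16 without it 0.056 (-0.03 to 0.26). Over all tested genes the medians with and without it were 0.0020 and 0.0053. CACGTG, the E-box bound by MYC with MAX, stood in 2 of the 26 (UTP20 and SRM, 7.69%) against 8.84% of the genes above the median and 15.9% of the 107 other ribosome assembly genes. Counting every listed start it stood in 5 (19.2%) against 11.1%. CACGCG stood in 6 of the 26 (23.1%) against 15.2%. The further motifs stood as follows: GGGCGG (GC box) in 65.4% against 65.4%, CCAAT in 30.8% against 34.8%, TATAAA in 3.85% against 5.73%, the NRF1 motif in 3.85% against 1.93% and the YY1 motif in 0% against 0.413%. A match describes letters in the window and is neither a bound site nor a cause.

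The upstream stretches of the called gene and of 3 further genes with CCGGAAG and among the smallest p are shown 5′ to 3′ on the gene's own strand, ending at the base before the start, with CCGGAAG or its reverse complement in capitals. They were picked by both traits. The other genes with a match were RRP9 (0.20), TSR1 (0.08), GAR1 (0.08), DDX21 (0.03), FBL (0.03) and NME1 (0.006). Of the 16 without it BYSL (0.26), WDR43 (0.20), GNL2 (0.17) and LYAR (0.16) had the largest changes. NIP7 is at chr16:69339522-69339771 (plus strand), POLR1B at chr2:112541786-112542035 (plus), POLR1C at chr6:43516839-43517088 (plus) and NOP16 at chr5:176388599-176388848 (minus), all in GRCh38.p14.
NIP7: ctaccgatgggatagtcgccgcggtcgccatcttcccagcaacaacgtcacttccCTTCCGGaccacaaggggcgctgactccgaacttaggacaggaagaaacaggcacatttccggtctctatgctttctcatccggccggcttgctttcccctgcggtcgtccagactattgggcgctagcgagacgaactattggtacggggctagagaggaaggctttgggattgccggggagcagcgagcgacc
POLR1B: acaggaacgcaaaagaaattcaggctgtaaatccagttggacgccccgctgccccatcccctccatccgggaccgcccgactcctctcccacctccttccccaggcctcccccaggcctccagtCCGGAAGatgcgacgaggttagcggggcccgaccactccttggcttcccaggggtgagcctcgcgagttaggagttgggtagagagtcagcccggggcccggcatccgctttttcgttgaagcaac
POLR1C: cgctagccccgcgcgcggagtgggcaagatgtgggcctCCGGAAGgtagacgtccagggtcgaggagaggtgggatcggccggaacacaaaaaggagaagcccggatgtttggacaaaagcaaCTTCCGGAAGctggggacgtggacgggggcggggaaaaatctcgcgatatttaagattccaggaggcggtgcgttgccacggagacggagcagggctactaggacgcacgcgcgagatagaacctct
NOP16: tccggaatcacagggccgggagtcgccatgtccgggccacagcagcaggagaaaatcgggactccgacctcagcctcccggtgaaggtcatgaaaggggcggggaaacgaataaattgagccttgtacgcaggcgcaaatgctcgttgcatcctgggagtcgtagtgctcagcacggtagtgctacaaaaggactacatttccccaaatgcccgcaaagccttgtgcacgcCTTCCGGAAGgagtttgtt
In NIP7 the match lay 195 to 189 bases before the start, and in POLR1B 126 to 120. In POLR1C one match lay 212 to 206 bases before the start and a second pair overlapped on both strands, at 127 to 121 and 124 to 118. The same overlapping pair stood in NOP16 at 19 to 13 and 16 to 10, close to the start.

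**Figure D1:**
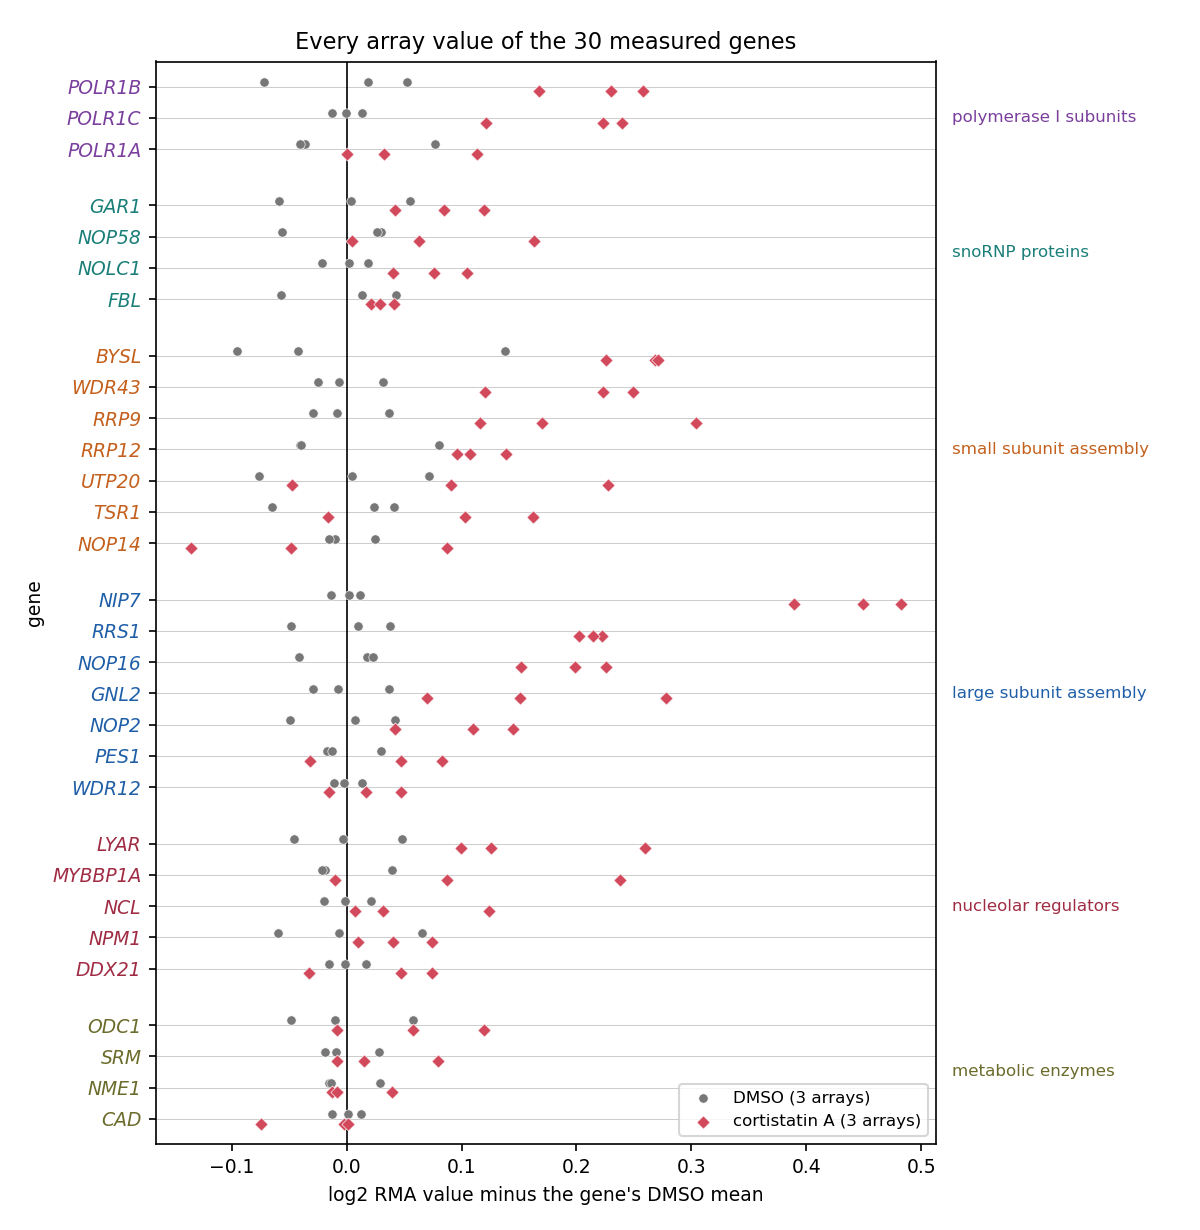
Log2 RMA value of each array minus the gene's DMSO mean (horizontal axis) for the 30 measured genes, grouped by role. Grey circles are the 3 DMSO arrays and red diamonds the 3 cortistatin A arrays; for 12 genes every red diamond lies to the right of every grey circle, by the widest gap for NIP7.

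The assembly factors of the large ribosomal subunit held the largest change. NIP7, a conserved nucleolar protein of rRNA processing tied to the large subunit in yeast, was at 8.53, 8.55 and 8.54 on the DMSO arrays and at 8.99, 8.93 and 9.02 on the cortistatin A arrays. All 3 treated arrays lay above all 3 controls, with a gap several times the spread within either group. NIP7 rose 1.36-fold, a log2 change of 0.44 ± 0.05 (SE, n = 3 arrays in each group, limma adjusted p = 0.0248). Its second probe set gave the same size, 0.44 ± 0.07, but with p-values adjusted over all probe sets neither passed (limma adjusted p = 0.0508 and 0.0858). The change of NIP7 was 0.42 to 0.47 with each array left out in turn, but the call ended in all 6 of these fits (limma adjusted p from 0.0909 to 0.138), without DMSO replicate 1, 2 or 3 and without CA replicate 1, 2 or 3. It also ended with arrays centred on housekeeping genes (0.40, limma adjusted p = 0.0679) and with the 3' to 5' index (0.43, limma adjusted p = 0.503). The fit with the index separates index from treatment only poorly. Over the 14 alternatives of NIP7 the limma adjusted p was 9.1e-06 to 0.503.

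RRS1, which helps bring the small 5S particle into the large subunit, was at 9.83, 9.75 and 9.81 in DMSO and at 10.02, 10.01 and 10.00 in cortistatin A. The groups did not overlap, and the change was 0.21 ± 0.05 (limma adjusted p = 0.166). NOP16, a nucleolar protein of early large-subunit particles and a MYC target, was at 10.29, 10.23 and 10.29 in DMSO and at 10.42, 10.50 and 10.47 in cortistatin A. Every treated array was again higher, with a change of 0.19 ± 0.05 (limma adjusted p = 0.198). The other probe sets of NOP16 gave 0.34, 0.05 and -0.05, so its size rests on the probe set chosen.

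GNL2, a nucleolar GTPase that readies the large subunit for export, was at 8.32, 8.34 and 8.38 in DMSO and at 8.50, 8.42 and 8.62 in cortistatin A, without overlap (0.17 ± 0.07, limma adjusted p = 0.37). NOP2, which methylates the RNA of the large subunit, was at 7.35, 7.38 and 7.29 in DMSO and at 7.45, 7.38 and 7.48 in cortistatin A. Its groups touched, and the change was 0.10 ± 0.05 (limma adjusted p = 0.516). PES1 (0.03) and WDR12 (0.02) form one complex with BOP1 in large-subunit processing, and both had overlapping groups. Of the 7 measured large-subunit factors all 7 were positive, 1 was called and 4 did not overlap, with a median of 0.17. Over all genes 0.445% were called higher. Among the genes above the median of all probe sets 12.8% were higher without overlap. With housekeeping centring PES1 (-0.007) and WDR12 (-0.02) turned.

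Of the 3 polymerase I subunits all 3 were positive and 0 were called, with 2 at an unadjusted limma p under 0.05 and without overlap. Their median was 0.19, and 0.07 without the _x_at and _s_at types. Among the genes above the median of all probe sets 7.91% were higher at that p and 12.8% were higher without overlap. POLR1B, the second largest subunit and part of the catalytic core, was at 8.67, 8.76 and 8.79 in DMSO and at 8.970, 8.907 and 8.998 in cortistatin A. The groups did not overlap, and the change was 0.22 ± 0.06, or 1.16-fold (limma adjusted p = 0.198). Its 3 other probe sets gave 0.16, 0.07 and -0.0001, the mean over all 4 was 0.11, and 0.07 was left without the _x_at and _s_at types.

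POLR1C, a subunit shared by polymerases I and III, was at 7.48, 7.49 and 7.50 in DMSO and at 7.73, 7.61 and 7.71 in cortistatin A. Its groups did not overlap on either probe set, which gave 0.19 ± 0.05 (limma adjusted p = 0.215) and 0.13. POLR1A, the largest subunit, was at 6.29, 6.18 and 6.18 in DMSO and at 6.22, 6.25 and 6.33 in cortistatin A. These values overlapped (0.05 ± 0.06, limma adjusted p = 0.796), and its other probe sets gave -0.10 and -0.01. The sign of POLR1A turned with the mean of all probe sets (-0.02).

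**Figure D2:**
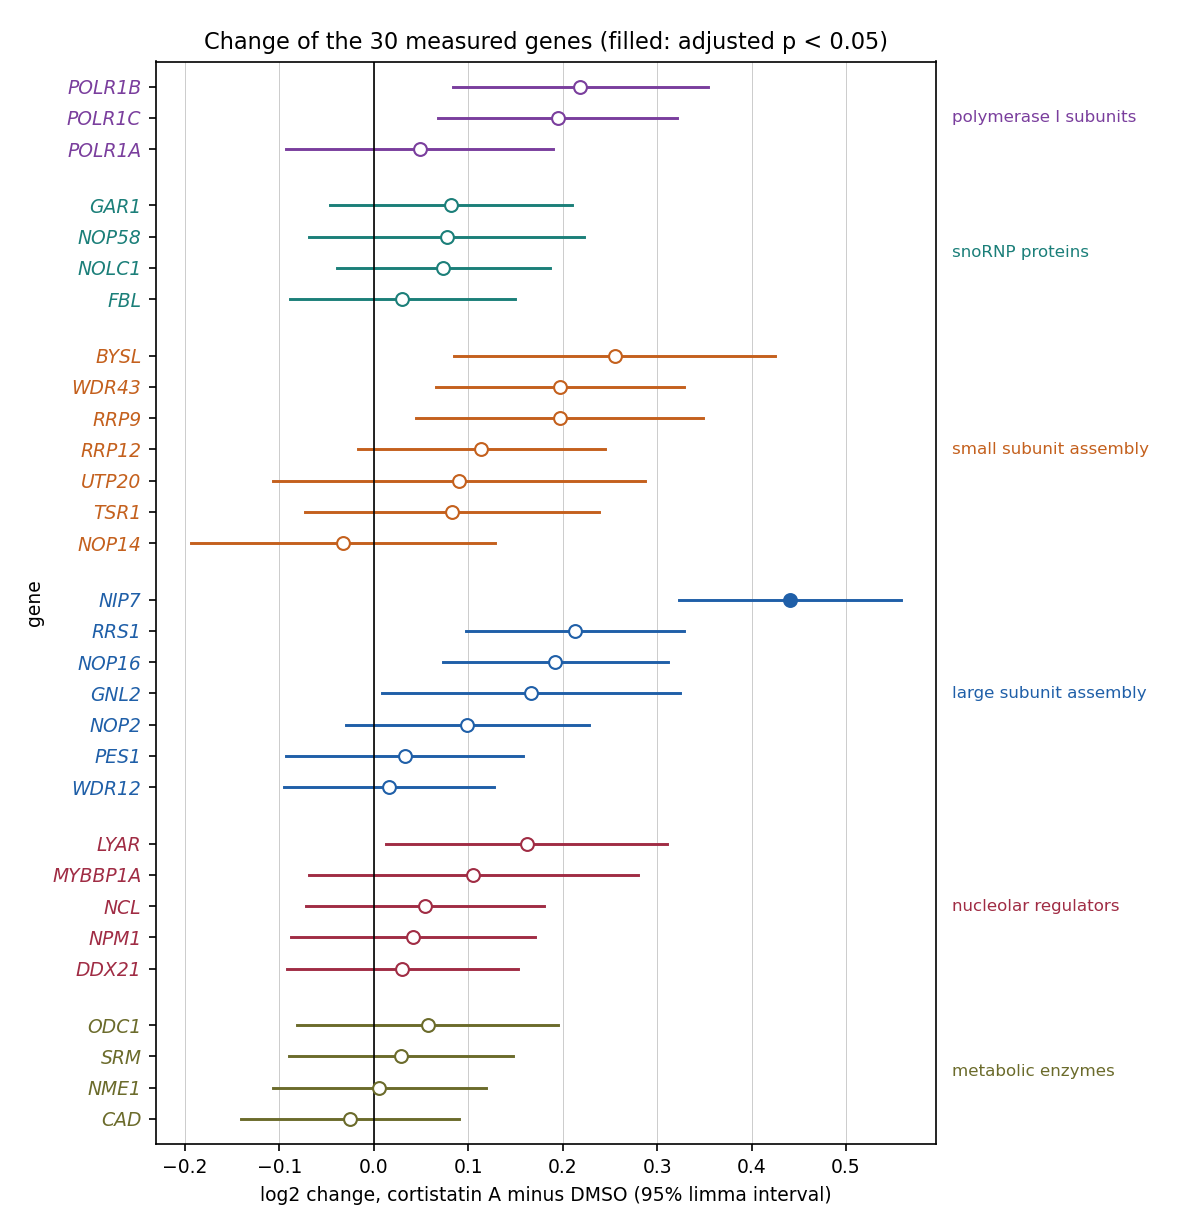
Log2 change, cortistatin A minus DMSO, with the 95% limma interval (horizontal axis) for the 30 measured genes by role. The filled point is NIP7 at 0.44, the only gene with an adjusted p under 0.05; open points did not pass, and the intervals of 10 genes, NIP7 included, lie wholly above 0.

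Small-subunit assembly factors lay mostly above 0, with 6 of 7 positive, 4 without overlap and 0 called (median 0.11; 3 at an unadjusted limma p under 0.05). Of the genes above the median of all probe sets 7.91% were higher at that p and 12.8% were higher without overlap. BYSL (bystin), which acts late in small-subunit maturation, was at 7.88, 7.70 and 7.65 in DMSO and at 8.01, 7.97 and 8.01 in cortistatin A. It had the second largest change among the 30, 0.26 ± 0.07 (limma adjusted p = 0.223), with DMSO replicate 1 nearest the treated arrays. WDR43, a member of the complex that joins rRNA transcription to processing, was at 8.46, 8.50 and 8.44 in DMSO and at 8.69, 8.59 and 8.71 in cortistatin A (0.20 ± 0.06, limma adjusted p = 0.223). RRP9, a protein of the U3 snoRNP, was at 6.30, 6.25 and 6.23 in DMSO and at 6.43, 6.38 and 6.57 in cortistatin A (0.20 ± 0.06, limma adjusted p = 0.278). For WDR43 and RRP9 all treated arrays were above all controls.

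RRP12, an export factor of the small subunit, was at 7.82, 7.70 and 7.70 in DMSO and at 7.84, 7.85 and 7.88 in cortistatin A, a narrow gap without overlap (0.11 ± 0.05, limma adjusted p = 0.459). Its other probe set above the median of all probe sets gave 0.03 and its dim ones 0.08, -0.11 and -0.05, all with overlap. UTP20 (0.09) and TSR1 (0.08), which act early and late in the same pathway, had overlapping groups, and the other probe sets of TSR1 gave 0.05 to 0.21. NOP14 was the one negative gene of this role (-0.03 ± 0.07), and it turned to 0.02 without CA replicate 2 and to 0.04 with the 3' to 5' index.

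The snoRNP proteins were all positive by small amounts, with 0 of 4 called, 0 at an unadjusted limma p under 0.05 and a median of 0.08. This median was 0.0459 without CA replicate 3 and 0.0355 with housekeeping centring. FBL (fibrillarin), the methyltransferase of box C/D particles, was at 11.70, 11.67 and 11.60 in DMSO and at 11.68, 11.69 and 11.70 in cortistatin A. Its groups overlapped (0.03 ± 0.05, limma adjusted p = 0.851), and its sign turned with housekeeping centring (-0.01). NOP58, a core protein of the same particles, stood at 0.08 ± 0.06, and GAR1 of the pseudouridylating box H/ACA particles at 0.08 ± 0.05. NOLC1, a chaperone of both kinds, did not overlap (0.07 ± 0.05, limma adjusted p = 0.584), while its other probe sets gave 0.008 and -0.008.

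Among the nucleolar regulators LYAR, a nucleolar zinc finger protein of cell growth, was at 8.98, 8.89 and 8.93 in DMSO and at 9.04, 9.06 and 9.20 in cortistatin A. The groups did not overlap on either probe set, and the changes were 0.16 ± 0.06 (limma adjusted p = 0.354) and 0.12. The abundant nucleolar chaperone NPM1 (nucleophosmin) was at 12.51, 12.56 and 12.64 in DMSO and at 12.61, 12.58 and 12.64 in cortistatin A. These values overlapped (0.04 ± 0.05, limma adjusted p = 0.811), with -0.02 and 0.003 on its other probe sets. NCL (nucleolin, 0.05), the RNA helicase DDX21 (0.03) and MYBBP1A, a nucleolar repressor of MYB (0.11), overlapped as well on their brightest probe sets. The second probe set of DDX21, nearly as bright (11.02 against 11.08), gave 0.07 without overlap, and that of MYBBP1A gave 0.07 with overlap. All 5 regulators were positive and 0 were called, with a median of 0.05 that was 0.0144 with housekeeping centring, where DDX21 turned (-0.01).

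The 4 metabolic enzymes stayed nearest to 0, with a median of 0.02 (-0.02 with housekeeping centring and -0.004 without CA replicate 3), 0 called, 0 at an unadjusted limma p under 0.05 and overlapping groups for all 4. NME1, a nucleoside diphosphate kinase, was at 11.62, 11.67 and 11.62 in DMSO and at 11.63, 11.63 and 11.68 in cortistatin A (0.006 ± 0.047, limma adjusted p = 0.973). ODC1, which makes putrescine, stood at 0.06, with a 95% interval from -0.08 to 0.20. SRM, the spermidine synthase, stood at 0.03, with a 95% interval from -0.09 to 0.15. CAD, which starts pyrimidine synthesis, stood at -0.03, with a 95% interval from -0.14 to 0.09. The difference between the enzymes and the other roles was not tested. Without these 4 genes the other 26 had a median of 0.09, with 25 of 26 positive.

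The 30 genes together can be set out per array as the median of their deviations from each gene's own mean. This was -0.03, -0.05 and -0.07 on DMSO replicates 1, 2 and 3 and 0.03, 0.02 and 0.10 on CA replicates 1, 2 and 3, so that CA replicate 3 was the highest. On the same arrays the median deviation of all genes was between -0.007 and 0.012, and that of the genes above the median of all probe sets between -0.009 and 0.0215, both highest on CA replicate 3 too. Without CA replicate 3 the median change of the 30 genes was 0.06, with 27 of 30 positive and 0 called. Housekeeping centring, which subtracted each array's median housekeeping level, moved the median of all genes from 0.0065 to -0.033 and that of the 21 housekeeping genes from -0.007 to -0.05, so it did not hold those genes level. There the median of the 30 genes was 0.04, with 22 of 30 positive and 0 called. Centring on the median deviation of the housekeeping genes, chosen after that result was seen, left 28 of 30 positive with a median of 0.09 and NIP7 called.

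The 30 genes had 59 single-gene probe sets, 52 of them above the median of all probe sets. Of these 52, 43 had a positive change, against 48.4% of all 22746 single-gene probe sets above that median. Among the 13 genes with more than 1 such probe set, 7 had the same sign on all of them. Adjusted over all 41091 single-gene probe sets limma called 0 of the 59, where it called 0.18% of all. At an unadjusted limma p under 0.05 stood 13 higher and 0 lower, against 5.56% higher and 5.73% lower of all.

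**Figure D3:**
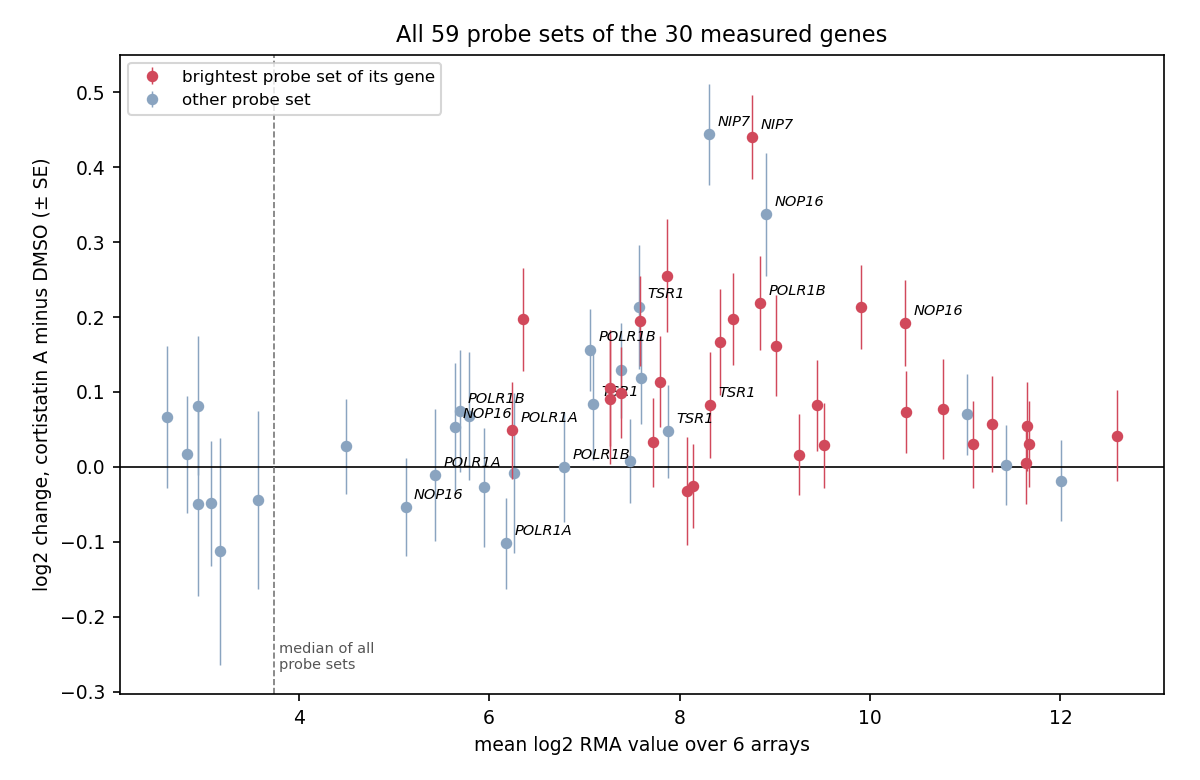
Log2 change, cortistatin A minus DMSO (vertical axis, bars ± SE), against the mean log2 RMA value over 6 arrays (horizontal axis) for the 59 probe sets of the 30 measured genes. Red points are the brightest probe set of each gene and blue points the others; both NIP7 probe sets stand at 0.44, while those of NOP16, POLR1B, POLR1A and TSR1 spread apart.

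Further genes of the pathway were taken from lists drawn up with earlier results of these data known. Their counts describe these arrays and are not independent support. Among 47 other large-subunit factors 42 were positive, 11 were higher at an unadjusted limma p under 0.05 and 0 lower, and the median was 0.09. URB2, a nucleolar factor of early large-subunit assembly, rose by 0.39 ± 0.05 (limma adjusted p = 0.0338). SURF6 (0.35, limma adjusted p = 0.127) and the export adaptor NMD3 (0.22, limma adjusted p = 0.195) did not pass, and other probe sets of NMD3 gave 0.21 and -0.006. The call of URB2 ended with each of the 6 arrays left out (0.37 to 0.42), with housekeeping centring (0.35) and once probe sets of the _x_at and _s_at types were dropped (0.39, limma adjusted p = 0.0563). It also ended with the 3' to 5' index (0.47, limma adjusted p = 0.475) and with the replicate number as a block (limma adjusted p = 0.234). Over the 15 alternatives of URB2 the limma adjusted p was 0.000126 to 0.475.

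Among 45 other small-subunit factors 39 were positive and 0 were called, with 7 higher and 1 lower at an unadjusted limma p under 0.05 and a median of 0.05. Without CA replicate 3 the median was 0.0328, and with housekeeping centring it was 0.013 with 26 of 45 positive. UTP15, of the complex that also holds WDR43, stood at 0.34 and the nucleolar protein ESF1 at 0.24, while the helicase DDX52 stood at -0.35 (limma adjusted p from 0.128 to 0.208 for the 3 genes). The other bright probe sets of DDX52 gave 0.03 and -0.22, and that of UTP15 gave 0.06. Among 11 other snoRNP factors 9 were positive and 0 were called (median 0.03, which turned to -0.005 with housekeeping centring; 2 at an unadjusted limma p under 0.05). NUFIP1, an assembly factor of box C/D particles, stood at 0.31 (limma adjusted p = 0.0943) with its other probe sets at 0.28 and 0.34, and NAF1, its counterpart for box H/ACA particles, at 0.26 (limma adjusted p = 0.261).

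Among 18 other polymerase I factors 9 were positive and 9 negative, with 0 called, 2 higher and 1 lower at an unadjusted limma p under 0.05 and a median of 0.004. This median had the other sign in 4 of 15 alternatives (-0.0203 without CA replicate 3, -0.0042 without DMSO replicate 2, -0.00301 after a further quantile normalization, -0.036 with housekeeping centring) and reached 0.0473 in another. The polymerase I subunits POLR1G (0.33, limma adjusted p = 0.0612) and POLR1E (0.20, limma adjusted p = 0.198) stood highest by p. TAF1B of the promoter selectivity factor stood at -0.16 and turned to 0.05 without the _x_at and _s_at probe sets. The second value is that of a probe set with a mean of 3.99, near the median of all probe sets, against 6.91 for the first. Polymerase III genes had a median of 0.007 (12 of 21 positive, 0 called, 1 at an unadjusted limma p under 0.05), with the subunit POLR3G at 0.24, and this median had the other sign in 4 of 15 alternatives (-0.0235 without CA replicate 3, -0.0157 without DMSO replicate 3, -0.000915 without DMSO replicate 1, -0.0329 with housekeeping centring). The RNA exosome, which trims rRNA precursors, had a median of 0.05 (9 of 13 positive, 0 called, 2 higher and 1 lower at an unadjusted limma p under 0.05), with EXOSC3 at 0.16 and EXOSC6 at -0.29, whose other probe sets gave -0.05 and -0.04. The exosome median was 0.00941 without CA replicate 3 and 0.00565 with housekeeping centring.

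The ribosomal proteins themselves had changes close to 0. Of 53 measured cytosolic ribosomal protein genes 0 were called and 1 passed an unadjusted limma p under 0.05, and the median was 0.009 (quartiles -0.004 and 0.03). Of the 53 changes 33 were positive, against 5 with housekeeping centring and 42 with centring by deviation. Their median change had the other sign with housekeeping centring (-0.0311) and without the _x_at and _s_at types (-0.00358), and was 0.000413 without CA replicate 3 and 0.0197 without CA replicate 1. Their median level was 13.1, close to the highest value on the arrays (13.84), where arrays can understate a change, and these genes have processed pseudogenes that can share probes. Neither was tested, so these values do not show that the ribosomal proteins were level. RPL36A was the lowest (-0.48, limma adjusted p = 0.324), on a probe set dimmer than the median.

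Among snoRNA host genes 5 of 15 were measured, 1 positive and 4 negative, and 0 were called, with 1 lower at an unadjusted limma p under 0.05. Their median was -0.0373, and with 1 array left out it ran from -0.0626 (without DMSO replicate 2) to -0.0188 (without CA replicate 1). The lower gene was GAS5, at -0.37 (limma adjusted p = 0.0764), on a dim probe set as well. Of 19 further genes of nucleotide and polyamine synthesis 0 were called and 9 were positive (median -0.007; 2 at an unadjusted limma p under 0.05). This median turned to 0.0281 without CA replicate 2 and to 0.0106 without DMSO replicate 2, with 12 of 19 positive in each, and to 0.00123 with centring by deviation. AMD1, which supplies the aminopropyl group for spermidine, stood at 0.27 (limma adjusted p = 0.0841), with 0.09 on its other probe set, and PPAT, the first enzyme of purine synthesis, at 0.13. In the MYC network MYC itself rose by 0.39 ± 0.05 (limma adjusted p = 0.0332) and its antagonist MNT stood at 0.24 (limma adjusted p = 0.127). The call of MYC ended with each of the 6 arrays left out (0.37 to 0.41), with housekeeping centring (0.35), with the index (0.43) and with the replicate number as a block (limma adjusted p = 0.23). The median of the 11 network genes was 0.01, with 7 positive, and it had the other sign with housekeeping centring (-0.0297), without DMSO replicate 1 (-0.00513), without CA replicate 3 (-0.0021) and with the index (-0.000792).

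**Figure D4:**
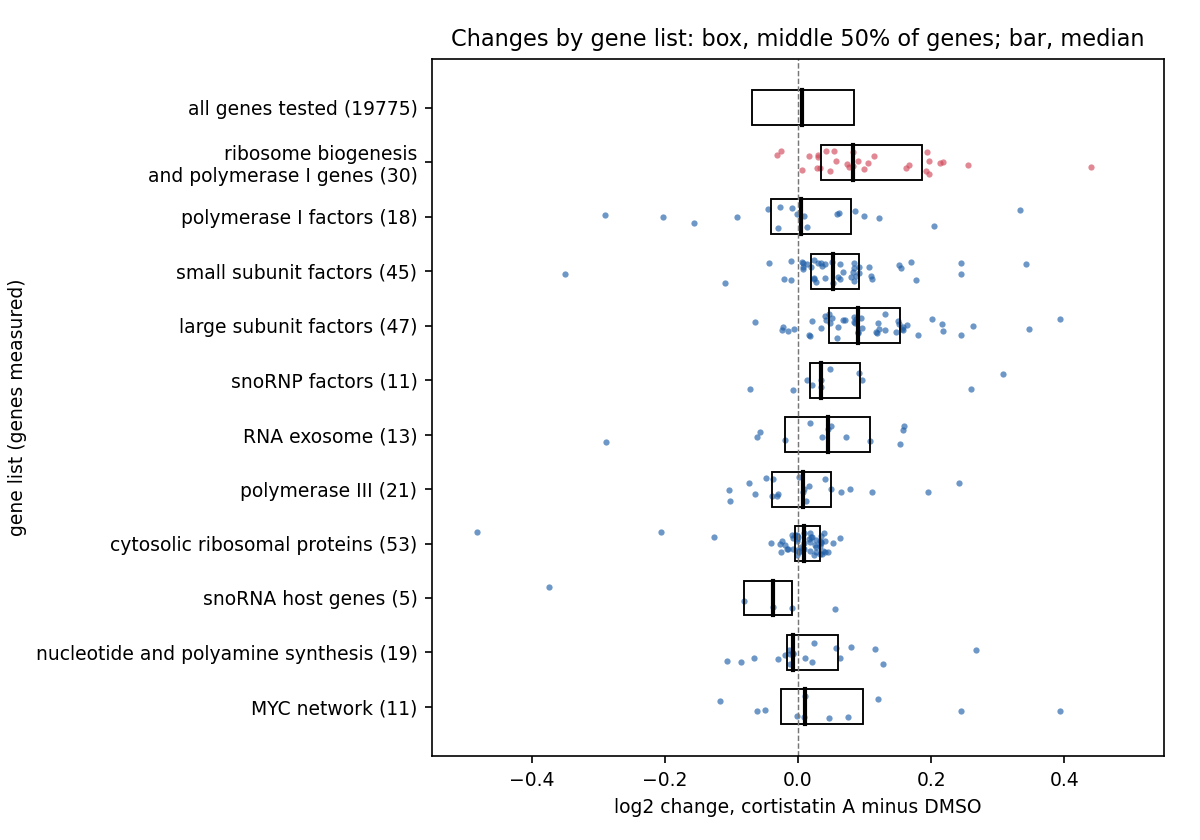
Log2 change, cortistatin A minus DMSO (horizontal axis), by gene list; points are genes (not drawn for all genes), boxes span the middle 50% of the genes and thick bars are medians. The medians are 0.08 for the 30 ribosome biogenesis and polymerase I genes, 0.09 for other large-subunit factors, 0.05 for other small-subunit factors and 0.009 for ribosomal proteins.

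The arrays also carry control probe sets for ribosomal RNA, identified by the design of the array and not by the annotation table. They were read although the labelling starts from polyadenylated RNA, so that they do not measure how much rRNA the cells held. The 5' probe set of 18S rRNA was at 12.60, 12.61 and 12.10 in DMSO and at 12.49, 12.65 and 12.83 in cortistatin A, and that of 28S rRNA at 11.67, 11.65 and 11.41 and at 11.64, 11.80 and 11.91. The groups overlapped for both (differences 0.218 and 0.205, two-sided exact permutation p = 0.4 and 0.3), and for the other 4 rRNA probe sets as well (differences -0.04 to 0.19, p from 0.2 to 0.6).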

How the data were processed

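The deposited table gives 1 value per probe set and array, which the authors made with RMA and the affy package, per the submitters' processing notes with no version. The deposited values were taken as log2, the scale on which RMA returns what the authors computed. RMA makes arrays alike, so a shift of all transcripts would be removed. Of 54675 probe sets 41091 name 1 gene in the platform annotation, with symbols updated through RefSeq for 41037.

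Groups came from the titles. All 19775 genes (brightest probe set each, no filter on dim genes) were fitted with limma 3.58.1 in R 4.3.3 (lmFit, eBayes without trend, group as the only term), two-sided with Benjamini-Hochberg adjustment. Changes are CA minus DMSO on the log2 scale with limma standard errors. The fit was tested on simulated data (10 simulations), and recovered 12.1% of 1.2-fold, 75.6% of 1.5-fold and 94.4% of 2-fold changes. The number of arrays limits the precision.

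Values are given in full for called genes, the 12 with the smallest p and the brightest of each role; of the other lists, called genes and up to 3 by p are named. The genes and lists were chosen with earlier results of these data known. The 3' to 5' index was formed after the control values were seen. Deviations of same-numbered arrays from their group means correlated at -0.0856, 0.0114 and -0.0124, so the replicate numbers were not taken to pair the arrays.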

Additional observations from a re-analysis of the deposited data

How the results depend on the processing

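The settings tried were a block for the replicate number, leaving out dim genes, averaging a gene's probe sets, probe sets without the _x_at and _s_at types, a further quantile normalization, 2 housekeeping centrings (the one by deviation chosen after seeing the data), trend and robust variances, the 3' to 5' index, each array left out, an adjusted p under 0.1 and all probe sets tested. Against 115 genes called, limma called 0 with the replicate block, 321 when dim genes were left out, 76 when probe sets were averaged, 54 without the _x_at and _s_at types, 61 with housekeeping centring, 762 with trend and robust variances, 0 with the index, 260 at an adjusted p under 0.1 and 74 among all probe sets. Leaving out 1 array gave 0 to 4 genes and 0 to 0 of the 30, with 1952 to 2342 genes at an unadjusted limma p under 0.05. Of the 30 genes 0 were called with the replicate block, without the _x_at and _s_at types (which left 25 of them and took both probe sets of NIP7), with housekeeping centring, with the index or among all probe sets, and 7 with trend and robust variances (NIP7, RRS1, NOP16, POLR1B, POLR1C, BYSL and WDR43). The unadjusted limma p was under 0.05 for 9 of 30 genes with the replicate block, 7 of 25 without the _x_at and _s_at types, 6 of 30 with housekeeping centring, 7 of 30 with the index and 13 of 30 with trend and robust variances, all higher. The median change of the 30 genes moved to 0.0425 with housekeeping centring and 0.119 with the index, and was 0.0623 to 0.114 with 1 array left out. The cause of these moves was not tested, and the fit with the index separates index from treatment only poorly. Of 445 single values of the 30 genes under alternatives 414 kept their sign and side of the threshold, 9 of NIP7 lost the call, 6 gained one and 16 changed sign, all of uncalled genes, and 21 genes never did. The signs that changed were those of POLR1A (-0.0213) and WDR12 (-0.0185) with the mean of probe sets, of FBL (-0.00958), PES1 (-0.00701), WDR12 (-0.0234), DDX21 (-0.00985), SRM (-0.011) and NME1 (-0.034) with housekeeping centring, of NOP14 (0.0365), NPM1 (-0.016) and NME1 (-0.0066) with the index, of NME1 with a further quantile normalization (-0.000493), without DMSO replicate 1 (-0.002), without DMSO replicate 3 (-0.000855) and without CA replicate 3 (-0.011), and of NOP14 without CA replicate 2 (0.0191). With 1 array left out NME1 ranged from -0.011 to 0.0204 and NOP14 from -0.0919 to 0.0191. Without the _x_at and _s_at types TAF1B (0.0473, on a probe set near the median of all probe sets) and RPL31 (-0.0697) changed sign. NIP7 under the replicate block was at 0.44 (limma adjusted p = 0.204). Small changes near the noise of 3 arrays a group set the limit here, and no scanner files, detection calls or scan dates were used.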
